A study of Rattus norvegicus with 31 samples.

Results

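Fos, Jun, Egr1 and Rcan1 are 4 genes that muscle fibres switch on quickly when they contract, and they were followed here in the gastrocnemius, the large calf muscle, of rats living in the cold with or without Ucp1. They were picked out by gene symbol in the authors' normalized table and are 4 of the 11289 genes listed there. All 4 had enough counts to be tested among 10082 genes. They were chosen because of earlier results in these same libraries: in control rats Fos, Jun and Egr1 stood lower and Rcan1 stood higher in the cold. That contrast is therefore described below without a test, and the cold response of the knockout rats, which are other animals, was tested.

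The libraries came from 31 female Sprague Dawley rats, all 7 months old and fed the same chow, with 1 library per animal. The groups were Ucp1 knockouts kept for 14 days at 4 °C (n = 8), controls kept for 14 days at 4 °C (n = 8), knockouts kept at room temperature for the same time (n = 7) and controls kept at room temperature (n = 8). Ucp1 encodes the mitochondrial protein that brown fat uses to turn fuel into heat. The labels do not describe the allele, and the Ucp1 transcript is not analysed here, so each animal's genotype is taken from its label. The whole muscle was sampled, with every cell type in it. Each library was made with a 3' tag kit, which counts each polyadenylated transcript by a stretch close to its 3' end. Libraries held 6.56 to 11.9 M counts with a median of 9.26 M. Of 17 muscle fibre markers, 15 were measured, and their summed level ran between 133627 and 263705 CPM (counts scaled to a common library size) over all 31 libraries. No measured marker of 9 cell types was at 0 in all libraries of a group. Room temperature controls 1 and 2 stood apart on the second principal component, and 7 libraries from all 4 groups formed the low end of the first, which held 35.1% of the variance. For the fold changes of the 4 genes, results that change without these libraries are given with and without them. Results for gene lists and cell type markers were not recomputed without them.

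Fos and Jun encode subunits of AP-1, a transcription factor that assembles as a dimer, and Egr1 encodes a zinc finger transcription factor. All of them are immediate early genes: a stimulus such as contraction, stretch or a growth factor activates MAP kinases, these act on factors already bound to DNA, among them the serum response factor SRF, and the messages appear within minutes and decay quickly. Rcan1 encodes a regulator that binds and restrains calcineurin, the calcium-activated phosphatase that lets NFAT factors enter the nucleus. A short form of Rcan1, made from its own internal start, is itself switched on by NFAT and so reports calcineurin activity. Both forms share the 3' end of the gene, so 3' tags cannot tell them apart.

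Promoter windows of 2 of the 4 genes, Egr1 and Rcan1, were in the RefSeq table of build GRCr8. Fos and Jun had no window there. The cold changes of Egr1 and Rcan1 had opposite signs, and whether the motifs bear on that was not tested. Each runs from 250 bases before to 50 after the annotated start, 5′ to 3′ on the gene's own strand. The Egr1 window is at chr18:26736828-26737127 on the plus strand and the Rcan1 window at chr11:45118187-45118486 on the minus strand. Capitals mark matches, on either strand, to the CArG box that SRF binds, the cyclic AMP element TGACGTCA or its core TGACG, the AP-1 site TGANTCA, the NFAT core GGAAA and the TATA box TATAAA.
Egr1 promoter: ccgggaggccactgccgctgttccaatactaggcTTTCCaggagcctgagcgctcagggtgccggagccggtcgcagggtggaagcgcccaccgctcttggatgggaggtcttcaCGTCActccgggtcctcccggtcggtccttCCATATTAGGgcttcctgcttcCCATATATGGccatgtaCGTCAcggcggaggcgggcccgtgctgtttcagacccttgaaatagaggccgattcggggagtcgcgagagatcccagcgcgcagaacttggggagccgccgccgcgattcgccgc
Rcan1 promoter: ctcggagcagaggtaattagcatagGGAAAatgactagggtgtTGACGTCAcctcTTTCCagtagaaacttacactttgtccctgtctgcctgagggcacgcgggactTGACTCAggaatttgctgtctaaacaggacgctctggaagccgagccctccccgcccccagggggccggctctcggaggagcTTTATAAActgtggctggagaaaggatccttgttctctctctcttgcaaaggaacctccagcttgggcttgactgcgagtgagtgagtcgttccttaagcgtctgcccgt
The Egr1 window held 2 CArG boxes, at -105 to -96 and at -83 to -74 from the start. It also held 2 cores TGACG, at -135 to -131 and at -66 to -62, and 1 NFAT core at -216 to -212. The Rcan1 window held no CArG box. It held 1 full TGACGTCA at -207 to -200, which contains both of its TGACG matches, 1 AP-1 site TGANTCA at -142 to -136, and NFAT cores at -225 to -221 and -195 to -191, on either side of the full element. A pair of overlapping TATAAA matches lay at -60 to -55 and -58 to -53, on opposite strands. The EGR motif GCGNGGGCG had no match in either window. Of 33469 promoter windows of the same length, 1.64% held a CArG box, 1.83% TGACGTCA, 21.2% TGACG, 7.33% TGANTCA, 62.7% GGAAA, 14.2% TATAAA and 4.98% GCGNGGGCG. The Rcan1 window lies inside the gene, which spans 45108123 to 45188065 on chromosome 11, so it belongs to an internal start. On the same build Egr1 spans 26737078 to 26740877 on chromosome 18, Fos 110852188 to 110855054 on chromosome 6 and Jun 115009900 to 115012993 on chromosome 5.

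**Figure D1:**
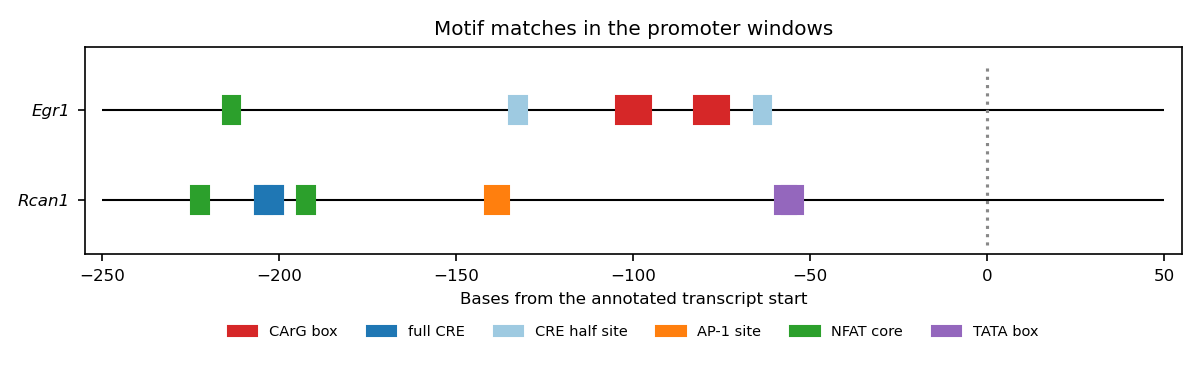
Motif matches in the promoter windows of Egr1 (upper line) and Rcan1 (lower line), plotted by distance in bases from the annotated start (dotted line); coloured blocks are matches on either strand. The 2 CArG boxes are in the Egr1 window, and the full TGACGTCA, the AP-1 site and the TATA matches are in the Rcan1 window.

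In knockout rats the cold was accompanied by lower mean levels of Fos, Jun and Egr1 and a higher mean level of Rcan1, but none of the 4 passed the test over all genes. All levels are CPM after scaling by TMM, and each change is a log2 fold change with its standard error from edgeR's quasi-likelihood test, adjusted over 10082 genes by Benjamini-Hochberg with a threshold of 0.05. In this contrast 139 genes passed, which is 1.38% of those tested, and 0 of the 4 genes did. At an unadjusted p under 0.05 there were 4 of the 4, against 14.3% of all genes, and DESeq2 passed 1 of them, Rcan1. A level is a share of RNA in the whole muscle, in which fewer cells of a type and less RNA per cell cannot be told apart.

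Fos ran between 4.60 and 35.4 CPM in cold knockouts with a median of 8.28, against 15.5 to 58.6 CPM with a median of 19.8 in room temperature knockouts. Of the 8 cold knockouts 6 lay below every room temperature knockout, and animals 29 and 31, at 35.4 and 24.7 CPM, lay among them. The log2 fold change was -1.04 ± 0.43 (95% interval -1.92 to -0.16; adjusted p = 0.235 by edgeR), a fold of 0.485. Without cold knockout 29 it was -1.47, and without room temperature knockout 11, the highest of its group, it was -0.74; neither passed, with adjusted p-values of 0.0776 to 0.519 over all single omissions. With limma voom, which gives each library a weight, the change was -1.56 and passed (adjusted p = 0.0332).

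Jun ran between 103.9 and 188 CPM in cold knockouts with a median of 141, against 127 to 269 CPM with a median of 200.5 in room temperature knockouts. All 8 cold knockouts lay below the room temperature median, but only 3 lay below every room temperature knockout. The log2 fold change was -0.50 ± 0.17 (95% interval -0.85 to -0.15; adjusted p = 0.131 by edgeR), a fold of 0.707. With that first principal component added to the model the change was -0.49 and passed (adjusted p = 0.0220). Within groups Jun followed that component, with r = 0.62 over 31 animals, and Egr1 had r = 0.47, Fos 0.19 and Rcan1 0.14. The sign of a component is arbitrary, and this one was set to rise with the Jun counts.

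Egr1 ran between 14.5 and 58.1 CPM in cold knockouts with a median of 19.9, against 23.1 to 84.2 CPM with a median of 54.8 in room temperature knockouts. Of the cold knockouts 5 lay below every room temperature knockout. The highest were again animals 31 and 29, at 58.1 and 42.6 CPM. The log2 fold change was -0.96 ± 0.37 (95% interval -1.72 to -0.19; adjusted p = 0.203 by edgeR), a fold of 0.514.

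Rcan1 ran between 105 and 558 CPM in cold knockouts with a median of 244, against 67.5 to 174 CPM with a median of 134 in room temperature knockouts. The cold knockouts spread widely, and none lay below every room temperature knockout. Animals 25, 24, 29, 30 and 26, at 558, 514, 340, 283 and 204 CPM, lay above every room temperature knockout, and animals 31, 27 and 28, at 124, 106 and 105 CPM, lay below the room temperature median. The log2 fold change was 1.10 ± 0.33 (95% interval 0.42 to 1.77; adjusted p = 0.0778 by edgeR), a fold of 2.14. It passed with DESeq2 (1.10, adjusted p = 0.0299), with the first component as a covariate (1.10, adjusted p = 0.0353), without cold knockout 27 (adjusted p = 0.0463) and without cold knockout 28 (1.23, adjusted p = 0.0351). It was 0.89 without cold knockout 25, and with limma voom's library weights it was 0.62 (adjusted p = 0.219).

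**Figure D2:**
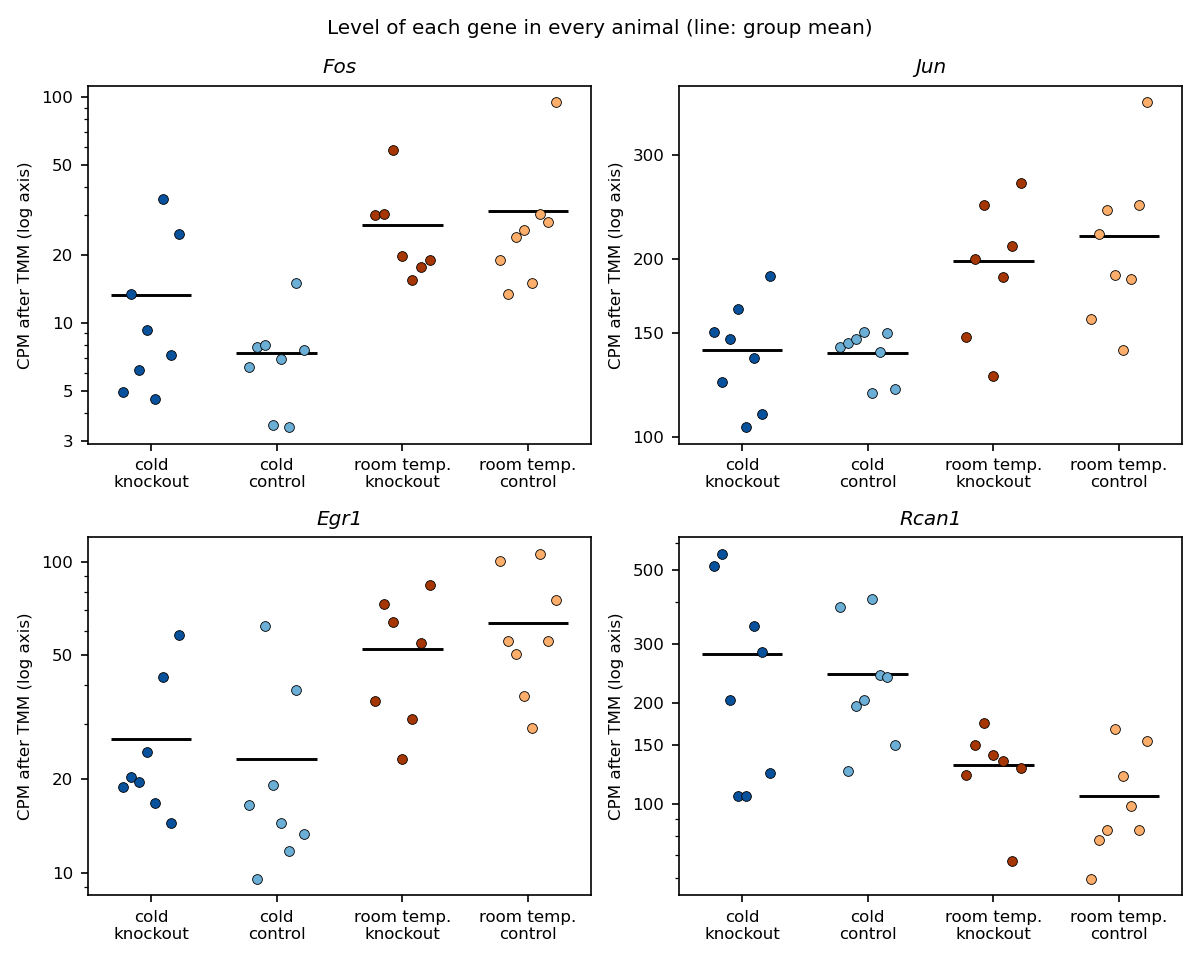
Level of each gene in every animal, in CPM on a log axis; each point is 1 library, the line is the arithmetic group mean, and groups run from cold knockout to room temperature control. Rcan1 in the cold knockouts spreads between 105 and 558 CPM, and Fos in the cold controls lies between 3.45 and 14.996 CPM.

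Cold in control rats is the contrast on which the genes were chosen, and its values are given as a description. Fos was 3.45 to 14.996 CPM in cold controls with a median of 7.26, against 13.5 to 94.98 CPM with a median of 24.8 in room temperature controls. Of the 8 cold controls 7 lay below every room temperature control. The log2 fold change was -2.09 ± 0.44, and it was -1.60 without room temperature control 8, which held 94.98 CPM. Egr1 was 9.57 to 62.0 CPM in cold controls with a median of 15.5, against 29.1 to 106 CPM with a median of 55.7 in room temperature controls, a change of -1.46 ± 0.37. Cold controls 18 and 22, at 62.0 and 38.6 CPM, overlapped the room temperature animals and the other 6 did not. Jun was 119 to 151 CPM in cold controls with a median of 143, against 140.5 to 369 CPM with a median of 204 in room temperature controls, a change of -0.65 ± 0.16. For Jun 3 of the 8 cold controls lay below every room temperature control. Rcan1 was 125 to 408 CPM in cold controls with a median of 221, against 59.6 to 168 CPM with a median of 90.8 in room temperature controls, a change of 1.21 ± 0.32. Of the cold controls 6 lay above every room temperature control. Over all genes 86 passed in this contrast, or 0.853%.

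Without Ucp1, the levels at either temperature did not differ detectably from those of controls. The knockout contrasts reuse the control animals on which the genes were chosen. At room temperature the log2 fold change of knockouts over controls was -0.20 ± 0.43 for Fos, -0.14 ± 0.17 for Jun, -0.28 ± 0.37 for Egr1 and 0.31 ± 0.32 for Rcan1, with adjusted p-values of 0.878 to 0.962 by edgeR. Fos averaged 27.3 ± 14.98 CPM in room temperature knockouts (SD, n = 7) and 31.3 ± 26.4 CPM in room temperature controls (SD, n = 8). Without room temperature control 8 the differences turned to 0.29 for Fos and 0.0075 for Jun. Over all genes 0, that is 0%, passed in this contrast by edgeR, with 712 at an unadjusted p under 0.05 and 1 by DESeq2.

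In the cold, Fos averaged 13.2 ± 11.1 CPM in knockouts and 7.34 ± 3.59 CPM in controls (SD, n = 8 each). The log2 fold change was 0.85 ± 0.43 (95% interval -0.03 to 1.73; adjusted p = 0.804 by edgeR), and it was 0.44 without cold knockout 29. Jun averaged 140.3 ± 28.1 CPM in cold knockouts and 139 ± 12.6 CPM in cold controls, a difference of 0.01 ± 0.16. Egr1 averaged 26.9 ± 15.3 CPM in cold knockouts and 23.2 ± 18.1 CPM in cold controls, a difference of 0.21 ± 0.36, and it was -0.066 without cold knockout 31. Rcan1 averaged 279 ± 180 CPM in cold knockouts and 244 ± 103 CPM in cold controls, a difference of 0.20 ± 0.31, and it was -0.013 without cold knockout 25. Beside these, the summed level of 10 white adipocyte markers was 1200 to 2273 CPM in cold knockouts, with a median of 1699. In cold controls it was 1071 to 1379 CPM, with a median of 1178. Most of that sum came from Lpl and Cfd, with means of 631 and 350 CPM over all libraries, against 26.5 CPM for Adipoq. The part of these markers in the differences was not tested. Over all genes 1 passed in this contrast, 0.00992% of those tested, with 633 at an unadjusted p under 0.05 and 6 by DESeq2.

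The difference between the cold responses of knockouts and controls contains the control response that chose the genes. It was 1.05 ± 0.60 for Fos (95% interval -0.19 to 2.29; adjusted p = 0.751 by edgeR), which leaves both no difference and a cold response over 1 log2 unit smaller in size in knockouts within the interval. It was 0.15 ± 0.24 for Jun, 0.50 ± 0.52 for Egr1 and -0.11 ± 0.45 for Rcan1, with adjusted p-values of 0.907 to 0.976 by edgeR. Over all genes 0, that is 0%, passed by edgeR, with 737 at an unadjusted p under 0.05 and 1 by DESeq2. By group mean, then, the room temperature groups were highest for Fos, Jun and Egr1 and the cold groups were highest for Rcan1. In controls that order is the one on which the genes were chosen, and in knockouts 0 of the 4 passed by edgeR. Between genotypes at the same temperature no difference was detected, though the interval for Fos in the cold ran from -0.03 to 1.73.

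**Figure D3:**
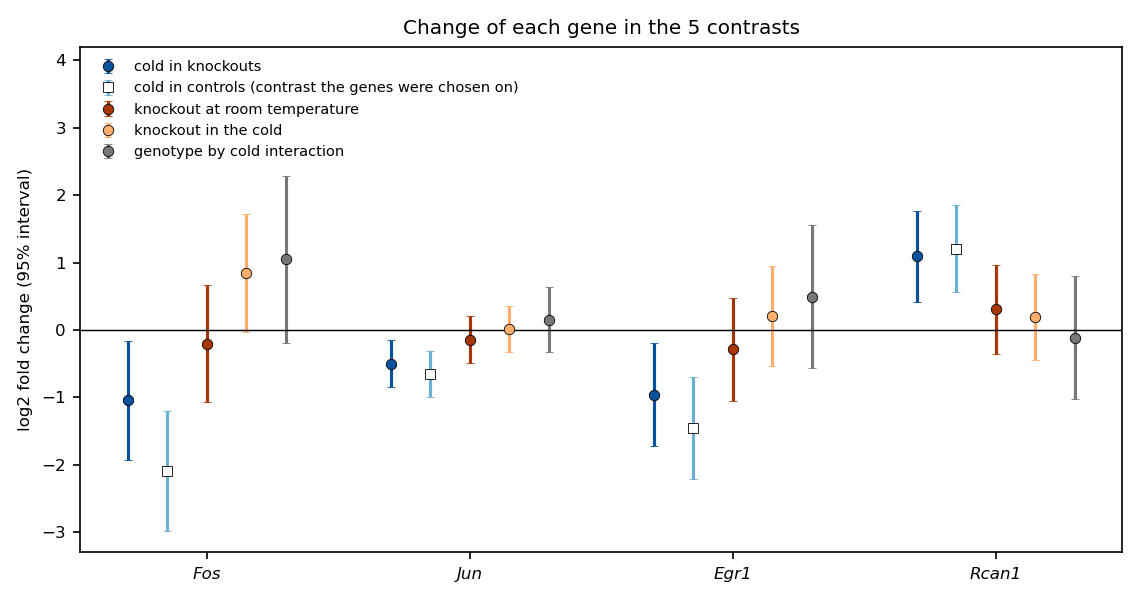
Log2 fold change of each gene in the 5 contrasts, with 95% intervals; open squares are cold in controls, the contrast the genes were chosen on. In cold knockouts the intervals of all 4 genes lie on the same side of 0 as in cold controls, before adjustment over all genes, and the intervals of the genotype contrasts all include 0.

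Fos, Egr1 and Rcan1 varied more between animals of a group than most genes of their level, and Jun did not. The biological coefficient of variation, the spread between animals after counting error, was 56.3% for Fos, 49.3% for Egr1, 42.9% for Rcan1 and 23.7% for Jun. Among the 500 genes nearest in level, these values stood at percentiles 97.6, 96.2, 92.6 and 47.8, and the medians of those genes were 25.5%, 23.6%, 23.8% and 24.04%. Fos in cold controls had the fewest counts, 32 to 137 per library, and counting error alone would give it a coefficient of variation of 12.5%, against 48.9% measured. Counts include PCR copies, so this figure covers counting error only.

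Whether the genes varied together from animal to animal was asked with the deviation of each animal's log2 level from its group mean, which does not use the differences between groups. Fos and Egr1 went together, with Pearson's r = 0.51 (adjusted p = 0.0123, permutation within groups, 6 pairs of genes, two-sided) and Spearman's rho = 0.50 (adjusted p = 0.0185, permutation). Without the 2 animals farthest out in Fos, r was 0.49. Jun and Egr1 had r = 0.48 (adjusted p = 0.0123, permutation) and rho = 0.57 (adjusted p = 0.00858, permutation), and r was 0.45 without the 2 farthest animals in Jun. Both of these genes followed the first principal component, and once it was removed their r was 0.28 and no longer passed (adjusted p = 0.326, permutation), while r of Fos and Egr1 was 0.49 (adjusted p = 0.0422, permutation). Fos and Jun had r = 0.43 (adjusted p = 0.0475, permutation) but rho = 0.23 (adjusted p = 0.452, permutation); r was 0.32 without room temperature control 8 and cold knockout 29 (adjusted p = 0.200, permutation). It also missed the threshold without room temperature controls 1 and 2 (r = 0.44, adjusted p = 0.0549, permutation) and with the first component removed (r = 0.41, adjusted p = 0.0849, permutation), so the test of this pair did not hold across these settings. The raw p-values of the 3 values of r were 0.00370, 0.00410 and 0.0237.

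By group, r for Fos and Egr1 was 0.86 in cold knockouts, 0.45 in cold controls, 0.34 in room temperature knockouts and 0.35 in room temperature controls. For Jun and Egr1 it was 0.69, 0.43, 0.89 and 0.22 in the same groups and order. Rcan1 did not follow the others detectably: r was 0.19 with Fos, -0.02 with Jun and -0.13 with Egr1, with adjusted p-values of 0.594 to 0.906 by permutation. Cold knockout 29 was high in Fos, Egr1 and Rcan1, while cold knockout 31 was high in Fos, Jun and Egr1 and held 124 CPM of Rcan1. Among sums of cell type markers, that of 7 satellite cell markers went with Fos (r = 0.55), Egr1 (r = 0.51) and Jun (r = 0.42) within groups, and with Rcan1 at r = 0.20. Its range was 227 to 544 CPM in cold knockouts, 217 to 309 CPM in cold controls, 237 to 370 CPM in room temperature knockouts and 243 to 355 CPM in room temperature controls. Most of that sum came from Sdc4, Myog and Myod1, with means of 122, 78.9 and 56.2 CPM, and the listed Pax7 and Myf5 were not tested. Of the 6 tested, 4 were below 0 and 2 above in cold knockouts, with a median log2 fold change of -0.14. In that contrast 1 of the 6 passed, with a positive change (adjusted p = 0.0198 by edgeR), where 1.38% of all genes passed. How the single satellite cell markers went with Fos, Jun and Egr1 within groups was not computed. Jun had r = -0.49 with 11 endothelial markers and Egr1 r = -0.43 with 15 muscle fibre markers. The part of these cells in the results was not tested.

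**Figure D4:**
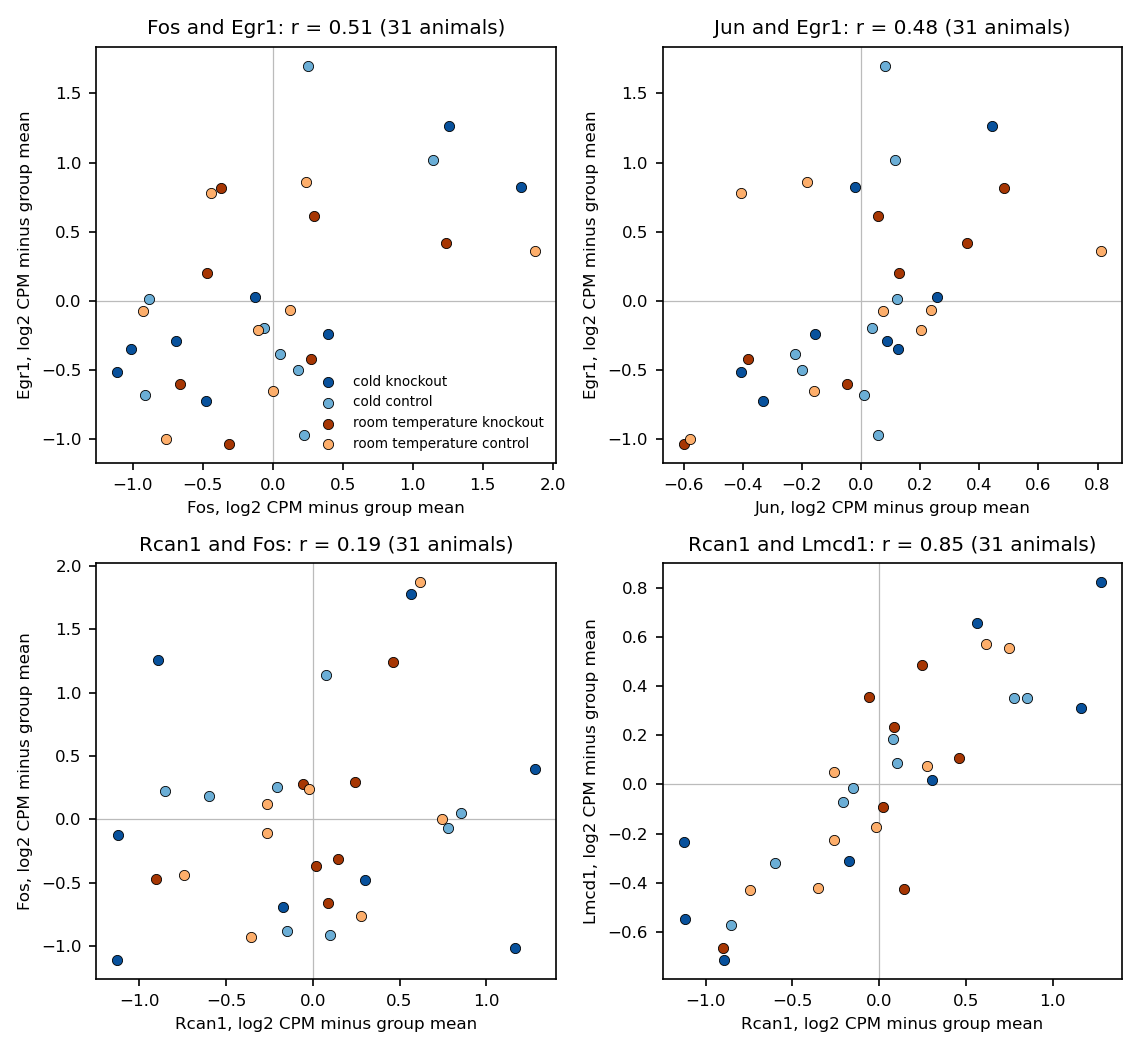
Deviations from the group mean of log2 CPM in 31 animals, coloured by group, for Fos with Egr1, Jun with Egr1, Rcan1 with Fos and Rcan1 with Lmcd1. The first 2 pairs slope upward with r of 0.51 and 0.48, Rcan1 with Fos has r = 0.19, and Rcan1 with Lmcd1 has r = 0.85.

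The genes whose levels most resembled each of the 4 within groups were ranked by the same r over 31 animals; being the highest over all genes tested, these values are a description and carry no p. Fos was most like Id1 (0.75), an inhibitor of basic helix-loop-helix factors, the orphan nuclear receptor Nr4a3 (0.75), the insulin receptor substrate Irs2 (0.73), Ier5 (0.72) and Phlda1 (0.71), and the same 5 led after the first principal component was removed. Egr1 was most like the Notch-regulated Nrarp (0.76), the kinase Plk3 (0.76), Klf4 (0.73), Ctu1 (0.72) and Klf10 (0.71); Klf4 and Klf10 are zinc finger factors. With the first component removed Apold1 led for Egr1 (0.70) and Id1 entered (0.66), in place of Ctu1 and Klf10. Jun was most like the MAP kinase phosphatase Dusp1 (0.74), the small GTPase Rhob (0.73), the actin-binding SRF activator Abra (0.71), Mipep (0.71) and Hars2 (0.71). None of those 5 was among the 5 most like Jun once the first component was removed; these were then Gpt2 (0.67), Slc25a25 (0.66), Med26 (0.66), Jund (0.62) and Aldh16a1 (0.60).

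Rcan1 was most like Lmcd1 (0.85), a LIM domain protein, and remained so after removal of the first component (0.85). Next came the small heat shock protein Cryab (0.72), Smim3 (0.71), Mrps25 (0.69) and Adprhl1 (0.68). With the first component removed those 4 gave way to Abhd2 (0.78), Enah (0.77), Mns1 (0.75) and Tomm20 (0.73). Of the first 5, Adprhl1 rose in cold knockouts, to 61.2 ± 12.1 CPM (SD, n = 8), against 38.4 ± 7.01 CPM in room temperature knockouts (SD, n = 7), by 0.67 ± 0.16 (adjusted p = 0.0229 by edgeR). Lmcd1 averaged 290.5 ± 115 CPM in cold knockouts and 313 ± 84.8 CPM in room temperature knockouts, a log2 fold change of -0.11 ± 0.21 (adjusted p = 0.900 by edgeR). Lmcd1 thus varied with Rcan1 between animals of a group while its own cold response in knockouts was not detected.

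Besides Fos and Jun, 7 of the AP-1 family and its partners were tested. In cold knockouts 0 of the 7 passed by edgeR, where 1.38% of all genes did; 0 were at an unadjusted p under 0.05, against 14.3% of all genes, and 0 passed by DESeq2. Their median log2 fold change was 0.20, against 0.02 over all genes tested, and 2 of 7 were below 0. Junb, an AP-1 subunit, averaged 33.9 ± 25.6 CPM in cold knockouts and 29.6 ± 13.2 CPM in room temperature knockouts, a change of 0.20 ± 0.38. Jund, another subunit, averaged 86.8 ± 23.8 CPM in cold knockouts and 87.0 ± 11.6 CPM in room temperature knockouts. Atf3, a stress-induced partner, had a change of 0.57 ± 0.39 in cold knockouts, and the small Maf partners Mafk, Maff and Mafg had 0.34 ± 0.19, 0.41 ± 0.26 and 0.16 ± 0.16. Atf2, another partner, had -0.32 ± 0.48 in cold knockouts, at a mean of 0.842 CPM over all libraries. In controls 5 of the 7 were below 0 in the cold, with a median of -0.09 against -0.03 over all genes.

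Of the EGR family and its NAB corepressors, Egr2, Nab1 and Nab2 were tested besides Egr1. In cold knockouts 0 of the 3 passed by edgeR or DESeq2, and 0 were at an unadjusted p under 0.05, with the same shares over all genes as for AP-1. Egr2 was 1.2195 ± 0.602 CPM in cold knockouts, 0.901 ± 0.459 CPM in cold controls, 1.52 ± 0.758 CPM in room temperature knockouts and 1.97 ± 0.750 CPM in room temperature controls. Its change in the cold was -0.30 ± 0.35 in knockouts and -1.13 ± 0.35 in controls, the direction of Egr1 in both. Nab1 and Nab2, which hold EGR factors in check, had changes of 0.18 ± 0.18 and 0.21 ± 0.27 in cold knockouts.

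A wider list of 43 other immediate early response genes had mostly positive changes in cold knockouts, where Fos, Jun and Egr1 had negative ones. There 30 of the 43 were above 0, against 53.4% of all genes, with a median of 0.17 against 0.02 over all genes. By edgeR 0 passed, where 1.38% of all genes did, and DESeq2 passed 0; 8 of the 43, or 18.6%, were at an unadjusted p under 0.05, near the 14.3% of all genes. The smallest p-values were those of Gadd45b, a stress-response gene, at -0.66 ± 0.24 (adjusted p = 0.164 by edgeR), and Sgk1, a kinase, at 0.58 ± 0.22 (adjusted p = 0.182). In controls 38 of the 43 were below 0 with a median of -0.43, against 53.9% of all genes below 0 and a median of -0.03. There 1 of the 43 passed, against 0.853% of all genes; it was Id2, with a positive change of 0.75 ± 0.19. Between genotypes in the cold, 37 of the 43 were above 0, against 57.3% of all genes. The median was 0.42, against 0.04 over all genes. In that contrast 0 passed by edgeR, where 0.00992% of all genes did, and 0 passed by DESeq2. At an unadjusted p under 0.05 were 13 of the 43, or 30.2%, against 6.28% of all genes. For the difference between the 2 cold responses, 39 of the 43 were above 0, against 60.0% of all genes. The median was 0.52, against 0.08 over all genes. Here 0 passed by edgeR, where 0% of all genes did, and 0 passed by DESeq2. At an unadjusted p under 0.05 were 9 of the 43, or 20.9%, against 7.31% of all genes. The list was drawn up with earlier results of these data known, which bears on every contrast here. These contrasts also share animals and the genes vary together, so the counts describe the list and are not separate observations.

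The kinases and factors that act on these genes were measured too. Of 27 genes of the MAP kinase and SRF input, 0 passed in cold knockouts by edgeR, 3 were at an unadjusted p under 0.05 and 1 passed by DESeq2, with a median of -0.08 against 0.02 over all genes. The 3 are 11.1% of the list, against 14.3% of all genes, and 1.38% of all genes passed, so the list did not stand apart from the background in these counts. The smallest p-values were those of Mapkapk3, a kinase activated by p38, at -0.33 ± 0.10 (adjusted p = 0.0889 by edgeR), and Crem, a cyclic AMP response factor, at 0.48 ± 0.17 (adjusted p = 0.164).

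In the calcineurin and NFAT pathway, the counts of passing genes were near those of all genes. Of 31 genes tested besides Rcan1, 1 rose in cold knockouts and 0 fell, 6 were at an unadjusted p under 0.05 and the median was -0.01, against 0.02 over all genes. These are 3.23% and 19.4% of the list, against 1.38% and 14.3% of all genes. The gene that rose was Myoz2, which encodes calsarcin-1, a Z-disc protein of slow and cardiac fibres that binds calcineurin. It averaged 667 ± 133 CPM in cold knockouts (SD, n = 8) and 370.3 ± 71.5 CPM in room temperature knockouts (SD, n = 7), a rise of 0.85 ± 0.17 (adjusted p = 0.00829 by edgeR). In cold controls it averaged 580.2 ± 110.3 CPM, against 306 ± 90.4 CPM in room temperature controls. The catalytic subunits Ppp3ca, Ppp3cb and Ppp3cc had changes of -0.22 ± 0.14, -0.52 ± 0.30 and -0.14 ± 0.17 in cold knockouts, and the regulatory subunit Ppp3r1 had 0.04 ± 0.18. Rcan2, a second calcineurin regulator, averaged 115 ± 60.6 CPM in cold knockouts and 79.1 ± 21.8 CPM in room temperature knockouts, a change of 0.54 ± 0.22 (adjusted p = 0.243 by edgeR).

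Of 16 heat shock and tissue stress genes, 1 rose in cold knockouts and 0 fell, where 1.38% of all genes passed, and the median was 0.06, against 0.02 over all genes. It was Hmox1, the enzyme that breaks down haem, which averaged 38.5 ± 21.5 CPM in cold knockouts and 17.3 ± 4.62 CPM in room temperature knockouts, a rise of 1.16 ± 0.24 (adjusted p = 0.0104 by edgeR). Hmox1 was 17.5 ± 3.83 CPM in cold controls and 13.4 ± 3.30 CPM in room temperature controls. Beside it, the summed level of 16 macrophage and neutrophil markers was 332 to 512 CPM in cold knockouts and 212 to 431 CPM in room temperature knockouts. In cold controls the sum was 269 to 480 CPM, with a median of 337, and in room temperature controls 58.6 to 322 CPM, with a median of 240. The part of these markers in the result was not tested.

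**Figure D5:**
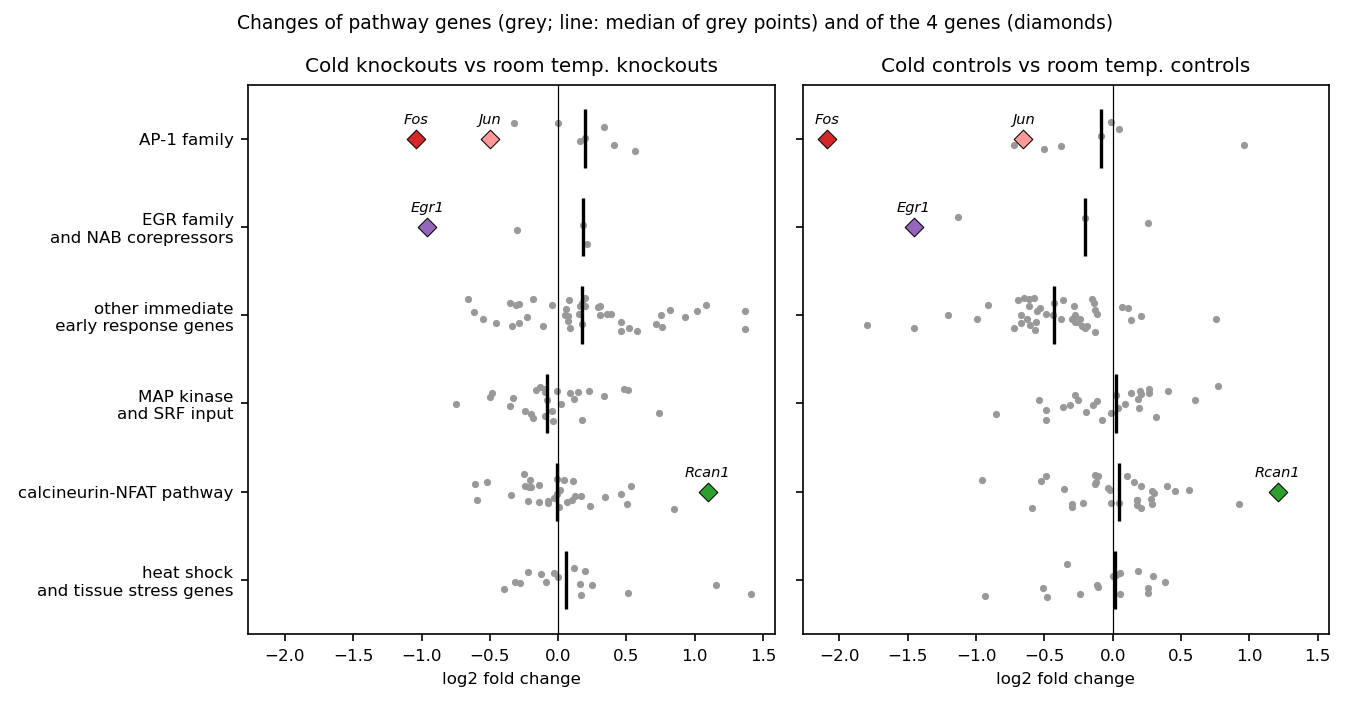
Log2 fold change in the cold, in knockouts (left) and controls (right), of the genes of 6 lists; grey points are single genes, black lines their median, and diamonds are Fos, Jun, Egr1 and Rcan1. Most grey points of the other immediate early response genes lie right of 0 in knockouts (30 of 43) and left of 0 in controls (38 of 43), while the diamonds lie on the same side in both.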

How the data were processed

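Gastrocnemius RNA of 31 rats was sequenced with a QuantSeq 3' kit, per the labels' protocols. The deposited raw table holds the authors' read counts per gene, and the deposited normalized table holds signal, which matched the raw counts over a constant for each library within a relative difference of 5.23e-10. Rnor_6.0 was the build and DESeq2 1.22.2 the tool, per the submitters' processing notes; aligner, counter and strandedness were not given in the sources used here. At 93 counts, the lowest total of a listed gene was well above 0, so low genes had been removed before deposition. Symbols came from the deposited table for 10519 genes; 770 had none. RefSeq positions and promoters are of build GRCr8 and were not used for counts.

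The main test was that of edgeR 4.0.16 (R 4.3.3): TMM scaling, filterByExpr (minimum count 10, minimum total 15), then quasi-likelihood fits of all libraries with the 4 groups as the only term (27 residual degrees of freedom), two-sided, adjusted by Benjamini-Hochberg within each contrast. DESeq2 1.42.0, limma 3.58.1, other scaling and filters, 2-group fits and omission of libraries were alternatives. Correlations used log2 CPM with a prior count of 2, less the group mean, and 100000 permutations within groups. The fitting script was tested on simulated data. No 2 libraries of a group agreed within sampling noise (among 105 pairs, chi-square was at least 5.00 per degree of freedom). The labels number animals in blocks by group and name no batch, so a batch that followed the groups cannot be told apart from them.

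The 4 genes and the gene lists were chosen with earlier results of these data known. Besides the 4 genes, the text names the 5 genes most like each with a mean of at least 1 CPM, the passing genes of each list or otherwise the 2 with the smallest p, calcineurin subunits and their regulators, and AP-1 and EGR genes.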

Additional observations from a re-analysis of the deposited data

Results flagged for a closer look

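In 4 of 16 combinations of gene and group, the highest animal stood farther from the next than Dixon's 95% critical value allows; chance gives about 1 in 20 for normally distributed values, and CPM are skewed to the right. On log2 CPM 2 combinations were above it, Fos in room temperature control 8 and, at its low end, Rcan1 in room temperature knockout 14 (67.5 CPM, next 121 CPM). On CPM, Fos was 14.996 CPM in cold control 22, against 8.00 CPM in the next animal of that group. Fos was 58.6 CPM in room temperature knockout 11, against 30.3 CPM in the next. Fos was 94.98 CPM in room temperature control 8, against 30.4 CPM in the next. Jun was 369 CPM in that same animal, against 247 CPM in the next room temperature control.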

How the results depend on the processing

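In cold knockouts every alternative kept the direction of all 4 genes; 28 of 32 alternative values and 122 of 124 single omissions stayed on the same side of the threshold, and the rest newly passed. These were Rcan1 with DESeq2 (1.10) and with the first component as a covariate (1.10), Jun with that covariate (-0.49), Fos with voom weights (-1.56), and Rcan1 among single omissions, whose range was 0.89 to 1.23; the cause was not tested. In controls all 24 alternatives and 124 omissions kept their direction. Values that turned sign did not pass in any setting. With voom weights the knockout difference in the cold was -0.063 for Egr1 and -0.20 for Rcan1. Without the 7 libraries low on the first component it was -0.085 for Rcan1, and the room temperature difference was 0.076 for Egr1. With the covariate the cold difference of Jun was -0.068, and without room temperature controls 1 and 2 the interaction of Rcan1 was 0.051. Over single omissions the room temperature difference ran from -0.50 to 0.29 for Fos and from -0.22 to 0.0075 for Jun. The cold difference ran from -0.069 to 0.074 for Jun, -0.066 to 0.59 for Egr1 and -0.013 to 0.35 for Rcan1, and the interaction of Rcan1 from -0.32 to 0.037. DESeq2 passed 220 genes for cold in controls, 322 for cold in knockouts, 1 and 6 for knockout at room temperature and in the cold, and 1 for the interaction, against 86, 139, 0, 1 and 0 with edgeR. It passed 2 of the other immediate early genes in cold controls, 1 MAP kinase gene in cold knockouts and 1 heat shock gene for knockout in the cold. Without a filter on low counts 1 other AP-1 gene and 0 other immediate early genes passed in cold controls. Without room temperature controls 1 and 2, r of Fos with Jun was 0.44; with the first component removed, an alternative chosen after seeing the data, it was 0.41, and r of Jun with Egr1 was 0.28. No paired analysis was possible because the labels number every animal separately. Depth limits Fos most, at 32 counts in its lowest library.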
